A study of Mus musculus with 27 samples.

Results

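The metabolic and xenobiotic nuclear receptors followed here are 9 genes, chosen by name from the 21850 genes of a bulk RNA-seq count table of mouse liver cultures: Nr1h4 (FXR), Nr0b2 (SHP), Nr1i2 (PXR), Nr1i3 (CAR), Nr1h3 (LXRα), Rxra (RXRα), Ahr, Thrb and Esr1. All 9 were found in the table, and all 9 passed the filter on low counts in every comparison. Ahr belongs to another protein family and was kept because the group was defined by function, as sensors of foreign compounds and metabolites. Levels are given as CPM, counts relative to the library total after TMM scaling over 27 libraries, and differences as log2 fold changes from edgeR's quasi-likelihood test, with p adjusted by Benjamini-Hochberg over all genes tested. A gene was called changed at an adjusted p under 0.05. Counts of members and shares of all genes called both use this threshold throughout.

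Nuclear receptors are transcription factors that bind small lipophilic ligands and switch genes on or off, and many of those in hepatocytes bind DNA as partners of RXRα. FXR senses bile acids and induces SHP, a receptor without a DNA-binding domain that represses bile acid synthesis, while PXR and CAR sense drugs and steroids and induce cytochrome P450 enzymes. LXRα senses oxysterols, the thyroid hormone receptor β and the oestrogen receptor α respond to hormones, and AHR, a PAS-domain protein that pairs with ARNT, senses aromatic compounds and induces Cyp1 genes.

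The study grew hepatocyte organoids (HepOrgs) from adult wild-type C57BL/6 mice and built periportal assembloids from them by adding cholangiocytes and mesenchyme. The 27 libraries fall into 9 conditions with 3 libraries each. Freshly isolated hepatocytes, obtained by perfusion, were the uncultured reference. HepOrgs at passage 2 were kept in HM-Wnt, the expansion medium, or were switched to MM, and both were sampled at 1 week (7 days) and 2 weeks (14 days). HM-Wnt holds gastrin, EGF, RSPO1, FGF10, FGF7, nicotinamide, HGF, CHIR (a GSK3 inhibitor) and A83-01 (a TGFβ receptor inhibitor). It also holds Wnt-conditioned medium and a ROCK inhibitor. Of all these MM holds only the Wnt-conditioned medium and the ROCK inhibitor, in the same basal medium. Assembloids joined 10 HepOrgs with 1000 nuc-tdTomato cholangiocytes and either 250 (homeostatic) or 2500 (fibrotic-like) SCA1+ PDGFRα-H2B-GFP+ mesenchymal cells, and were grown in MM for 1 week (7 days) or 2.5 weeks (18 days). One library of fresh hepatocytes, replicate 3, has a wild-type title but a heterozygous MDR2 genotype label. The labels do not say whether the 3 libraries of a condition came from separate cultures or animals, so the p-values measure the spread between these libraries, which may be technical.

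Totals ran from 30289364 to 65348596 counts per library (median 43727965). One library stood apart: replicate 2 of the homeostatic assembloids at 1 week had counts for 8465 genes, against 14016 to 16018 genes in the other 26 libraries. In it Nr1i3, Nr1h3, Thrb and Esr1 had no counts and Nr1h4 stood at 0.485 CPM, so the tests on assembloids are given with and without it, an alternative chosen after seeing the data. Hepatocyte markers (10 genes) were present in all 9 conditions, but at different levels. They summed to 70000 to 131000 CPM in fresh hepatocytes, 47400 to 59200 CPM in HM-Wnt at 1 week and 29100 to 35300 CPM at 2 weeks. In MM they summed to 23200 to 70600 CPM at 1 week and 32400 to 70800 CPM at 2 weeks. The fresh hepatocytes also held RNA of other liver cells. In them 8 endothelial markers summed to 40.5 to 195 CPM, against at most 2.29 CPM in the HepOrgs, and 10 immune cell markers summed to 61.8 to 655 CPM. In the HepOrgs the immune markers summed to 8.01 to 791 CPM, the highest in an MM library at 2 weeks, with Clec4f at 0 in all 4 conditions. The part of these cells, and of the differing hepatocyte marker sums, in the receptors' levels was not tested.

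The proximal promoters of Nr1h4, Nr0b2 and Nr1i3 are shown because Nr0b2 and Nr1i3 had the widest range of levels of the 9 genes and FXR, encoded by Nr1h4, induces Nr0b2. The RefSeq promoter table held windows for 8 of the 9 genes and none for Ahr. Each window holds 250 bases before and 50 after a RefSeq start site (from the GRCm38.p6 table), was found exactly once in GRCm39, and is written 5′ to 3′ on the gene's strand with GRCm39 coordinates. Capitals mark the receptor half-site AGGTCA and the AHR core GCGTG on either strand.
Nr1h4, chr10:89342471-89342770, minus strand: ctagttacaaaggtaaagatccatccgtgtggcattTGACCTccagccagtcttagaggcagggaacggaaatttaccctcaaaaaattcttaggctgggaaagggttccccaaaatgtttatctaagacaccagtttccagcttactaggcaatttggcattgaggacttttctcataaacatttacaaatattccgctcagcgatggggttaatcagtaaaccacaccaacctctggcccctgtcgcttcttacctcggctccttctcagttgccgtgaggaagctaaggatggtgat
Nr0b2, chr4:133280437-133280736, plus strand: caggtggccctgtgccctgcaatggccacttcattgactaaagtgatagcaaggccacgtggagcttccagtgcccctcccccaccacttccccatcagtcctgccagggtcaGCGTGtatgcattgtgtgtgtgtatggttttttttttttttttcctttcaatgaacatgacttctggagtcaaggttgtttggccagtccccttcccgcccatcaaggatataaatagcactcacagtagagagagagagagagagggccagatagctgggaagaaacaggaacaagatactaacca
Nr1i3, chr1:171041289-171041588, plus strand: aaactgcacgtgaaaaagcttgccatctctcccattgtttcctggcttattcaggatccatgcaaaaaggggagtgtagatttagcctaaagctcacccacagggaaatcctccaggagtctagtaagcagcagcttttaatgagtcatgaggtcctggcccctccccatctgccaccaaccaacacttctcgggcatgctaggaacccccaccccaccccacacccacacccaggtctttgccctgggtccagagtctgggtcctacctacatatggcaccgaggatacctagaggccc
The Nr1h4 window lies inside the annotated gene, and the Nr0b2 and Nr1i3 windows span the annotated 5′ end. The Nr1h4 window held 1 half-site and the Nr0b2 window 1 GCGTG core, while the Nr1i3 window held neither. Of 32851 mouse promoter windows of this length, 16.3% hold AGGTCA and 32.4% hold GCGTG. The FXR-type inverted repeat AGGTCANTGACCT (in 0.00913% of windows) and the LXR-type direct repeat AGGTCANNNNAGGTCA (in 0.0152%) were found in no member's window. Of the other members, the second Rxra window held 2 half-sites, 1 Thrb window held 1 half-site and 3 GCGTG cores, the second Esr1 window held 1 GCGTG core, and the Nr1i2 and Nr1h3 windows held neither. A match is a description of these letters only.

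In fresh hepatocytes the 9 receptors differed widely per gene length. By the deposited TPM, which divides by the whole gene span, Nr0b2 was highest (164 TPM on average) and Esr1 lowest (0.408 TPM). Scaled instead by exon length, Nr0b2 was again highest (54.0 CPM per kilobase of exon) and Esr1 lowest (2.53), but Rxra and Nr1h4 moved to ranks 2 and 3. Across the 26 libraries without the one that stood apart, the highest CPM was 13.9 times the lowest for Rxra, the narrowest range, and 435 times for Nr1i3, the widest.

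**Figure D1:**
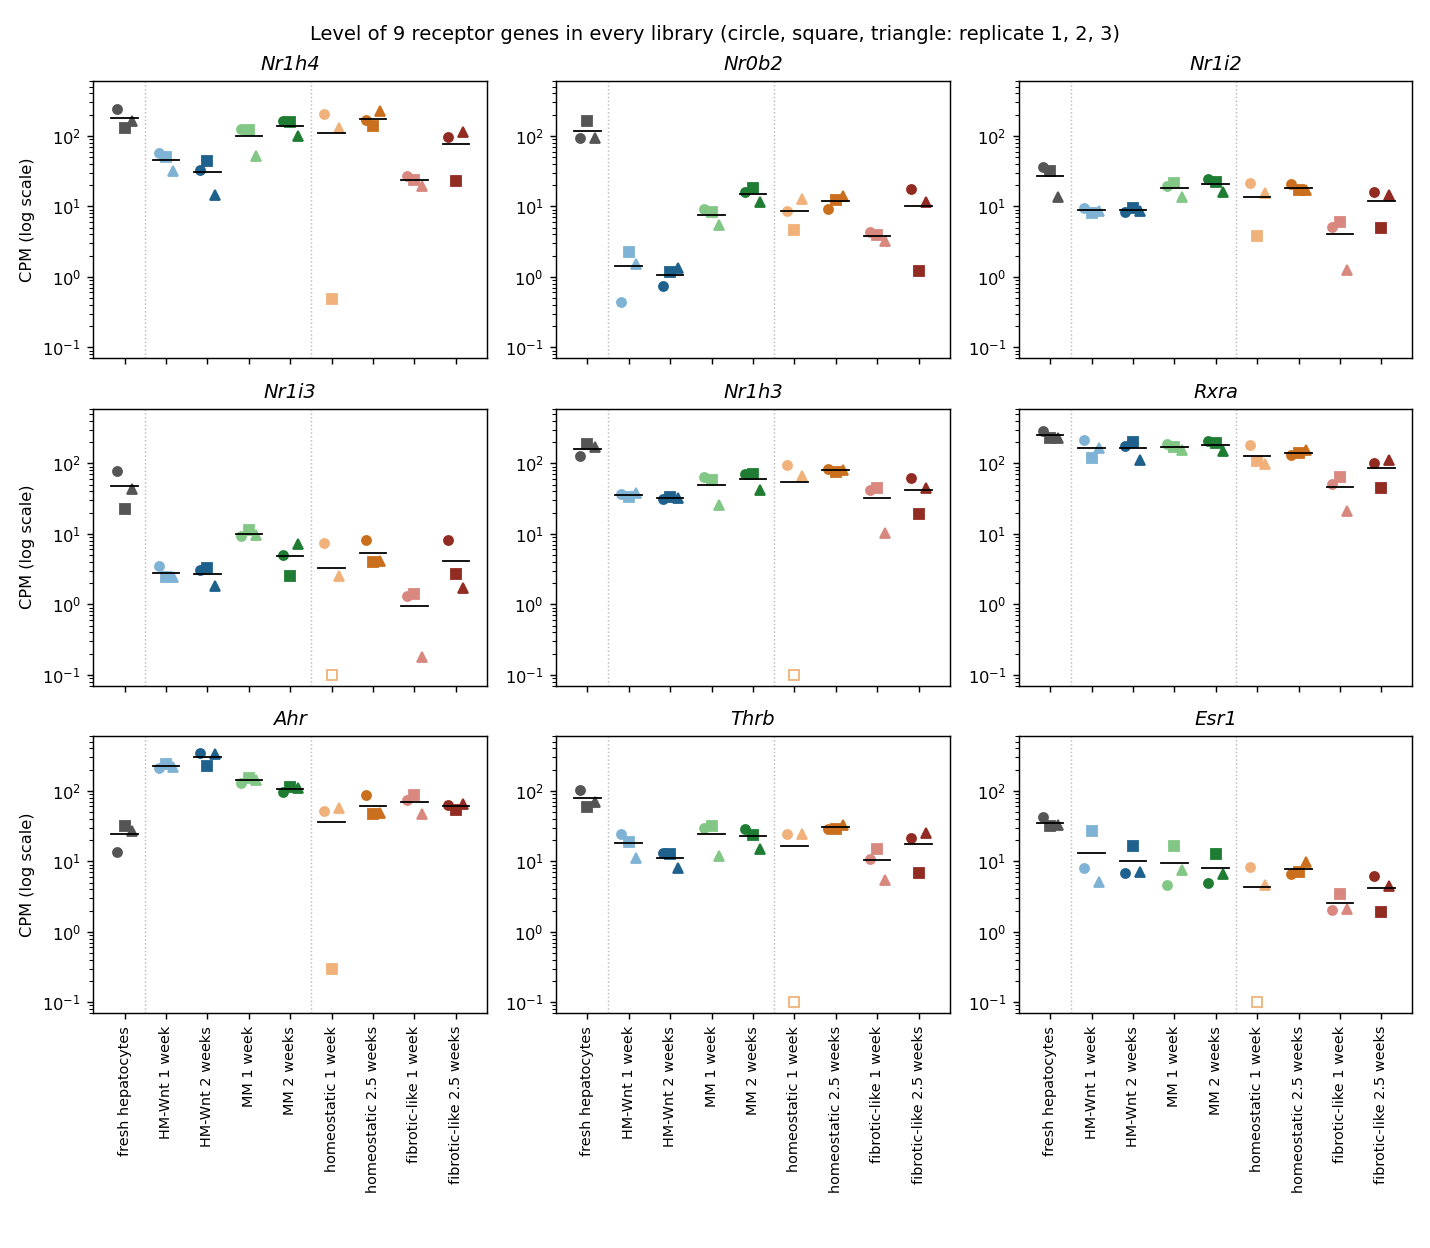
CPM of each receptor gene (log axis) in every library, by condition, with circles, squares and triangles for replicates 1, 2 and 3 and a bar at the mean; open symbols at 0.1 are libraries with no counts. Ahr had its lowest mean in fresh hepatocytes (13.5 to 32.1 CPM), and the other 8 genes had their highest mean there. The lowest single Ahr value was 0.298 CPM, in homeostatic 1-week replicate 2.

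FXR RNA fell in HM-Wnt HepOrgs. Nr1h4 (chr10:89289742-89369497, minus strand) stood at 239, 128 and 163 CPM in fresh hepatocytes, at 56.5, 50.2 and 31.8 CPM in HM-Wnt at 1 week and at 32.9, 43.6 and 14.7 CPM at 2 weeks. All 6 HM-Wnt libraries lay below all 3 fresh ones. In edgeR's quasi-likelihood test the change was -1.98 ± 0.44 (log2, SE) at 1 week (adjusted p = 0.00212) and -2.58 ± 0.45 at 2 weeks (adjusted p = 0.000356). In MM the gene read 125, 121 and 52.4 CPM at 1 week and 164, 156 and 100 CPM at 2 weeks, and the differences from fresh hepatocytes, -0.83 ± 0.42 and -0.32 ± 0.42, did not pass the test (adjusted p = 0.128 and 0.579). The MM libraries of 1 week still lay below the fresh ones, while those of 2 weeks overlapped them.

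SHP RNA showed the deepest fall of the 9 genes in 3 of the 4 HepOrg conditions. Nr0b2 (chr4:133280678-133283847, plus strand) stood at 94.3, 162 and 91.8 CPM in fresh hepatocytes, at 0.436, 2.24 and 1.53 CPM in HM-Wnt at 1 week, and at 0.731, 1.16 and 1.33 CPM at 2 weeks. These are changes of -6.45 ± 0.52 and -6.80 ± 0.53 on the log2 scale, or 87.4-fold and 111-fold lower (edgeR adjusted p = 8.18e-07 and 5.41e-07). In MM it read 9.28, 8.22 and 5.43 CPM at 1 week and 15.9, 18.1 and 11.5 CPM at 2 weeks, changes of -3.94 ± 0.45 and -2.92 ± 0.43 (edgeR adjusted p = 1.99e-05 and 0.000172). No HepOrg library in either medium reached the lowest fresh library. At 2 weeks in MM the fall of Nr1i3 was deeper, at -3.30.

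The xenobiotic receptors PXR and CAR differed in how far they fell. Nr1i2 (chr16:38068685-38115216, minus strand), which encodes PXR, read 36.4, 32 and 13.6 CPM in fresh hepatocytes and 8.09 to 9.55 CPM in the 3 HM-Wnt libraries of 1 week, a change of -1.69 ± 0.31 (edgeR adjusted p = 0.000663), with -1.68 ± 0.31 at 2 weeks (adjusted p = 0.000618). In MM it read 13.7 to 21.2 CPM at 1 week and 15.8 to 24.1 CPM at 2 weeks, overlapping the fresh libraries, and its differences of -0.60 and -0.38 did not pass (edgeR adjusted p = 0.129 and 0.341). These calls turned on fresh replicate 3, the library with the heterozygous MDR2 genotype label. Without it the differences were -0.91 and -0.68 and passed (edgeR adjusted p = 0.00954 and 0.0386).

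Nr1i3 (chr1:171041506-171048270, plus strand), which encodes CAR, fell in all 4 HepOrg conditions. It read 77.3, 22.8 and 43.2 CPM in fresh hepatocytes, at most 3.51 CPM in the 6 HM-Wnt libraries, 9.34, 11.2 and 9.70 CPM in MM at 1 week and 4.93, 2.51 and 7.12 CPM in MM at 2 weeks. No HepOrg library overlapped the fresh ones. The changes were -4.13 and -4.19 in HM-Wnt at 1 and 2 weeks (edgeR adjusted p = 1.34e-05 and 1.06e-05) and -2.26 and -3.30 in MM (adjusted p = 0.000955 and 8.49e-05). The gene shares exon sequence on the opposite strand with Tomm40l, a mitochondrial import gene, and the libraries do not keep strand, so their reads cannot be told apart where they overlap. Tomm40l rose against fresh hepatocytes in the same 4 comparisons, by 1.02 to 1.49.

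LXRα RNA fell in all 4 conditions and RXRα RNA in 1 of them. Nr1h3 (chr2:91014394-91033417, minus strand) read 128, 187 and 171 CPM in fresh hepatocytes and 30.8 to 37.6 CPM over the 6 HM-Wnt libraries. In MM it read 63.5, 58.9 and 25.3 CPM at 1 week and 70.3, 71.1 and 41.2 CPM at 2 weeks. Every HepOrg library lay below the fresh ones. The changes were -2.22 and -2.36 in HM-Wnt (edgeR adjusted p = 0.000102 and 5.55e-05) and -1.73 and -1.39 in MM (adjusted p = 0.000795 and 0.00333). It overlaps exons of Acp2, a lysosomal phosphatase gene on the opposite strand, which fell by 0.71 to 0.79 in the same comparisons.

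Rxra (chr2:27566452-27653330, plus strand), the shared partner, read 292, 231 and 229 CPM in fresh hepatocytes and 112 to 215 CPM over the 12 HepOrg libraries, all below the fresh ones. The fall was called at 2 weeks in HM-Wnt, at -0.66 ± 0.25 (edgeR adjusted p = 0.0424). On the deposited TPM that difference was 0.12 and did not pass, on a scale whose all-gene median was itself shifted to 0.68. It was -0.63 in HM-Wnt at 1 week, -0.57 in MM at 1 week and -0.43 in MM at 2 weeks (edgeR adjusted p = 0.0533, 0.0851 and 0.195). The calls rested on single libraries: the 2-week one was lost without replicate 1 or 3 of that condition or without any 1 of the 3 fresh libraries (edgeR adjusted p = 0.0575 to 0.188), and the 1-week difference passed without HM-Wnt replicate 1 (-0.85, adjusted p = 0.0244).

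Ahr was the only 1 of the 9 that rose, and it did so in all 4 HepOrg conditions. Ahr (chr12:35547973-35585057, minus strand) read 13.5, 32.1 and 27.3 CPM in fresh hepatocytes, 212, 244 and 218 CPM in HM-Wnt at 1 week and 343, 225 and 338 CPM at 2 weeks. In MM it read 130, 150 and 144 CPM at 1 week and 97.4, 115 and 108 CPM at 2 weeks, so that every HepOrg library lay above every fresh one. The changes were 3.16 ± 0.28 and 3.60 ± 0.28 in HM-Wnt (8.93-fold and 12.1-fold, edgeR adjusted p = 1.78e-06 and 6.47e-07) and 2.52 ± 0.27 and 2.15 ± 0.27 in MM (5.75-fold and 4.44-fold, adjusted p = 1.21e-05 and 4.48e-05).

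The hormone receptors fell as well. Thrb (chr14:4429815-4809435, minus strand) read 104, 59.2 and 70.4 CPM in fresh hepatocytes and at most 31.6 CPM in any HepOrg library, with changes of -2.16, -2.82, -1.69 and -1.77 in HM-Wnt at 1 and 2 weeks and MM at 1 and 2 weeks (edgeR adjusted p = 0.000933, 0.000136, 0.00525 and 0.00429). It was lowest in replicate 3 in 4 of 4 HepOrg conditions, as was Nr1h4. Esr1 (chr10:4561593-4955626, plus strand) read 42.2, 31.3 and 32.3 CPM in fresh hepatocytes and 4.60 to 26.5 CPM in HepOrgs, where replicate 2 was highest in 4 of 4 conditions. All 12 HepOrg libraries lay below the fresh ones.

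The Esr1 fall passed in 3 of the 4 comparisons, at -1.85 in HM-Wnt at 2 weeks, -1.92 in MM at 1 week and -2.11 in MM at 2 weeks (edgeR adjusted p = 0.023, 0.024 and 0.016), and not in HM-Wnt at 1 week (-1.48, adjusted p = 0.0593). The HM-Wnt 1-week difference passed without replicate 2 of that condition, which read 26.5 CPM against 8.16 and 5.10 CPM in the others (-2.44, edgeR adjusted p = 0.00651). The other 3 calls were each lost without replicate 1 or 3 of the HepOrg condition, and those of HM-Wnt at 2 weeks and MM at 1 week also without fresh replicate 1 (edgeR adjusted p = 0.0605 to 0.0882).

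Against fresh hepatocytes, 7 of 9 members were called in HM-Wnt at 1 week, 9 at 2 weeks, and 6 in MM at each time, in each case with Ahr as the 1 gene that rose. Over all genes tested, 49.7%, 51.8%, 42.8% and 39.7% were called in these comparisons. The members' median change was -1.98, -2.36, -1.69 and -1.39, while the all-gene median lay between -0.01 and 0.03. The direction split depends on the scale: on counts 26.1% of genes were higher and 25.7% lower in HM-Wnt at 2 weeks, and on log2(TPM + 1) 60.4% were higher and 11.1% lower. In the other 3 comparisons the counts gave 24.9%, 21.5% and 19.7% higher with 24.8%, 21.3% and 20% lower, and log2(TPM + 1) gave 43%, 46.4% and 39.5% higher. The 4 comparisons share the fresh libraries, so they are not independent of one another.

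**Figure D2:**
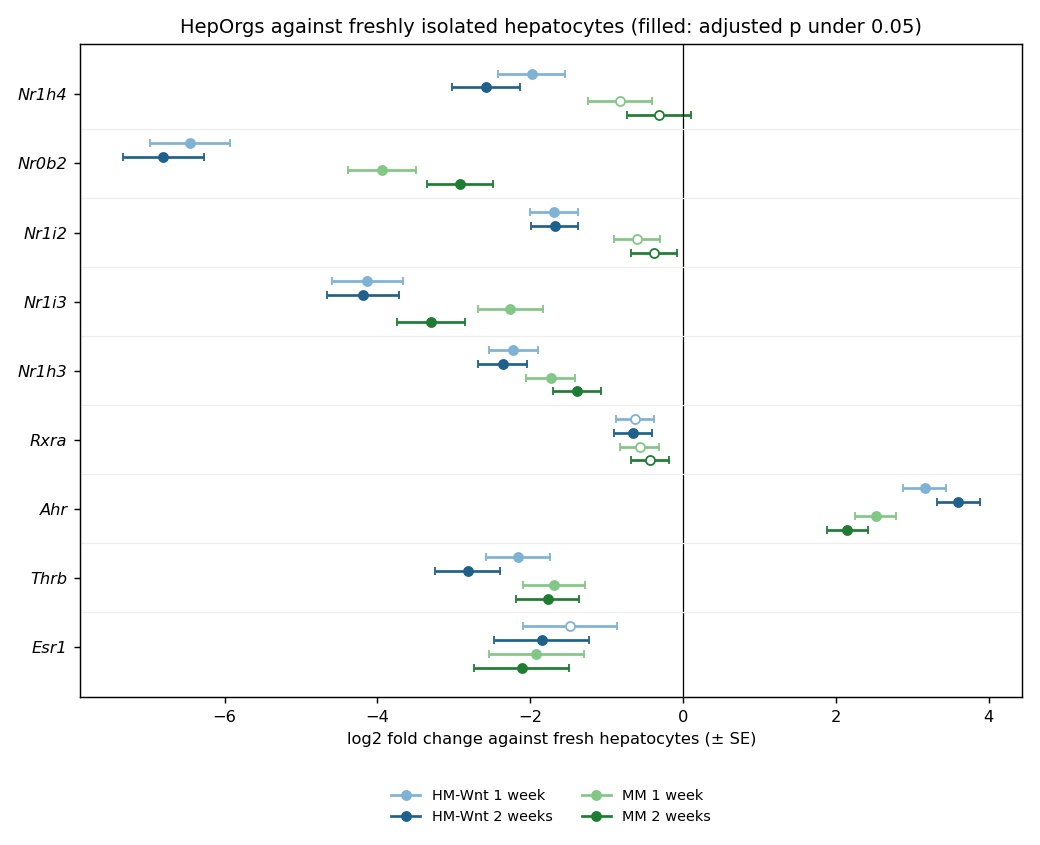
Log2 fold change of each receptor gene against fresh hepatocytes (horizontal axis, with SE) in the 4 HepOrg conditions, 3 libraries each; filled points passed the test. Nr0b2 reached -6.80 and Ahr 3.60, both in HM-Wnt at 2 weeks.

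Genes known to be controlled by these receptors moved in both directions. The comparisons with fresh hepatocytes at 2 weeks called 51.8% (HM-Wnt) and 39.7% (MM) of all genes, with 25.7% and 20% lower. Of 12 FXR and SHP targets in a list chosen by function, 10 were tested, and 8 fell in HM-Wnt at 2 weeks and 7 in MM at 2 weeks, with none higher (list medians -4.90 and -2.63, against all-gene medians of 0.03 and -0.01). Cyp8b1, the sterol 12α-hydroxylase of bile acid synthesis, averaged 471 ± 296 CPM (SD, n = 3) in fresh hepatocytes and 0.285 ± 0.239 CPM in HM-Wnt at 2 weeks. Cyp7a1, the rate-limiting enzyme of the same pathway, changed by -7.76, and Slc10a1, the basolateral bile acid importer, by -5.80 (edgeR adjusted p = 7.48e-05 and 4.02e-05). SHP is known to repress Cyp7a1 and Cyp8b1, and all 3 genes were low in HM-Wnt. The list thus mixes genes that these receptors repress with others, so its counts and medians do not measure receptor activity.

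Of 9 PXR and CAR targets tested, 4 fell and 1 rose in each medium at 2 weeks, comparisons in which 51.8% (HM-Wnt) and 39.7% (MM) of all genes were called, so that 5 of 9 is near the background in HM-Wnt. Among them were Ces2a, a carboxylesterase, with -3.99 in HM-Wnt and -6.09 in MM, and the P450 genes Cyp2c29 (-3.02 and -3.47) and Cyp3a11 (-2.06 and -2.88). Of 9 LXR targets, 5 fell in HM-Wnt and none rose, while 5 fell and 2 rose in MM. The sterol exporter genes Abcg5 (-3.16 and -2.86) and Abcg8 (-2.43 and -2.61) were among those that fell, and Pltp, a phospholipid transfer protein gene, rose in MM (1.62, edgeR adjusted p = 0.0284).

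Of 6 AHR targets tested, 4 rose and 1 fell in HM-Wnt at 2 weeks and 3 rose and 1 fell in MM at 2 weeks (medians 2.29 and 2.14). Among all genes, 51.8% and 39.7% were called there. Cyp1a1 averaged 2.03 ± 0.454 CPM in fresh hepatocytes and 164 ± 107 CPM in HM-Wnt at 2 weeks (SD, n = 3), a change of 6.29, and Nqo1, a quinone reductase gene, changed by 2.30 in HM-Wnt and 3.29 in MM. Cyp1a2, a P450 gene of mature hepatocytes, went the other way, from 2240 ± 484 CPM to 67.0 ± 47.8 CPM in HM-Wnt (-5.10, edgeR adjusted p = 0.000687). Of 6 thyroid hormone receptor targets, 1 rose and 2 fell in HM-Wnt, and 3 rose and 2 fell in MM, with the lipogenic gene Thrsp at -3.26 and -1.32 and the malic enzyme gene Me1 at 1.59 in MM.

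Of 28 other nuclear receptors tested, 13 fell in each medium at 2 weeks, and 4 rose in HM-Wnt and 3 in MM. In these comparisons 51.8% (HM-Wnt) and 39.7% (MM) of all genes were called. Nr4a1, an immediate early orphan receptor gene, changed by -3.67 and -4.80. Vdr, the vitamin D receptor gene, had 1 count over the 3 fresh libraries and 11.9 ± 1.73 CPM in HM-Wnt at 2 weeks (SD, n = 3). Of 12 co-regulators and partners, 5 fell in each medium and none rose, led by Ppargc1a, the coactivator PGC1α, at -3.02 and -2.88. A count of 5 of 12 is below the share of all genes called in HM-Wnt and near it in MM. At 1 week the counts of the 7 lists were within 1 or 2 genes of these.

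The next question was how the switch from HM-Wnt to MM bears on the receptors. FXR, SHP and PXR RNA were higher in MM and AHR RNA was lower. Nr0b2 rose at both times, by 2.50 ± 0.47 at 1 week and 3.89 ± 0.49 at 2 weeks (edgeR adjusted p = 0.0228 and 0.00118), with all MM libraries (5.43 to 18.1 CPM) above all HM-Wnt ones (0.436 to 2.24 CPM). Nr1h4 rose at 2 weeks by 2.27 ± 0.44 (adjusted p = 0.00952), again without overlap (100 to 164 against 14.7 to 43.6 CPM), and at 1 week its difference of 1.14 did not pass (adjusted p = 0.152), where the libraries overlapped.

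Nr1i2 rose by 1.07 ± 0.22 at 1 week and 1.31 ± 0.22 at 2 weeks (edgeR adjusted p = 0.0307 and 0.00465), and Nr1i3 by 1.86 ± 0.36 at 1 week (adjusted p = 0.024). At 2 weeks Nr1i3 gave 0.89 (edgeR adjusted p = 0.118). Ahr fell by 1.43 on the log2 scale at 2 weeks (edgeR adjusted p = 0.00103) and gave -0.65 at 1 week (adjusted p = 0.0615), with no overlap between the media at either time. Nr1h3 gave 0.48 and 0.98 and Thrb 0.45 and 1.06, which did not pass (edgeR adjusted p = 0.0684 to 0.543). Rxra (0.04 and 0.24) and Esr1 (-0.44 and -0.25) overlapped between the media at both times and did not pass either.

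At 1 week 3 of 9 members were called (2.98% of all genes), at 2 weeks 4 (11.5%) and in the mean of both times 6 (21.5%, with 11.5% higher and 10% lower), those 6 being Nr1h4, Nr0b2, Nr1i2, Nr1i3 and Nr1h3, which rose, and Ahr, which fell. With the replicate number as a block, since same-numbered HepOrg libraries deviate together, 5, 6 and 7 members were called (9.48%, 19.6% and 28.9% of genes). The block added Nr1h4 (1.06, edgeR adjusted p = 0.00987) and Ahr (-0.65, adjusted p = 0.045) at 1 week, Nr1h3 (0.92, adjusted p = 0.0409) and Thrb (1.03, adjusted p = 0.00371) at 2 weeks, and Thrb (0.72, adjusted p = 0.00265) in the mean. The 1-week calls were fragile without the block: all 3 were lost without MM replicate 1 or 2 or HM-Wnt replicate 3, and Nr1i2 and Nr1i3 also without HM-Wnt replicate 2 (edgeR adjusted p = 0.0635 to 0.11). Nr1h3, at 0.73 in the mean (edgeR adjusted p = 0.0389), lost its call in 10 of 12 fits that left out 1 library, with adjusted p from 0.0629 to 0.104, and kept it without MM replicate 3 of either time. It also passed at 2 weeks without MM replicate 3 (1.21, adjusted p = 0.0313), as Thrb did in the mean without MM 1-week replicate 3 (0.93, adjusted p = 0.0215).

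**Figure D3:**
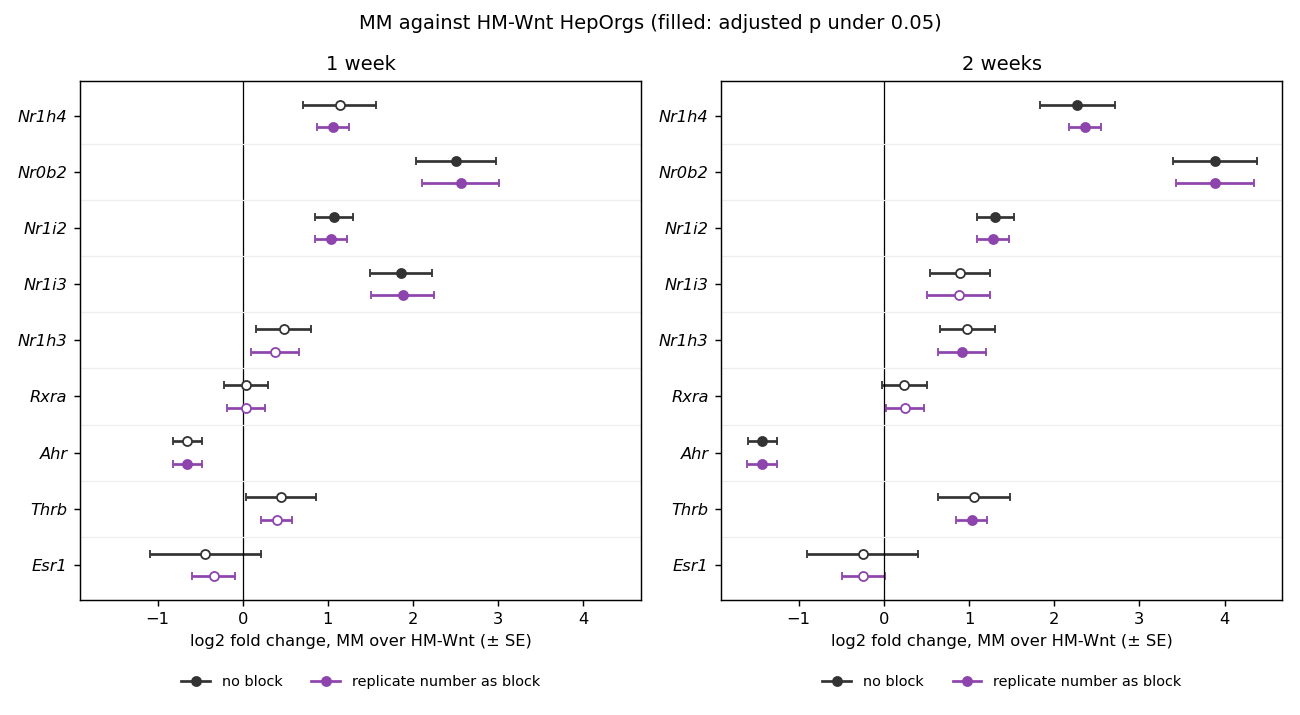
Log2 fold change of each receptor gene in MM over HM-Wnt HepOrgs (horizontal axis, with SE) at 1 and 2 weeks, 3 libraries a condition, without and with the replicate number as a block; filled points passed the test. Nr0b2 had the highest value at both times (2.50 and 3.89 without the block) and Ahr fell by 1.43 at 2 weeks.

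Target genes were counted in the mean of both times, in which 21.5% of all genes were called. Of 10 FXR and SHP targets, 9 were higher in MM and none lower (median 2.10, all-gene median -0.02), among them Cyp8b1 (4.35), Klb, the co-receptor for FGF15/19 (2.64), and Slc10a1 (2.44). Cyp8b1, which SHP is known to repress, was thus higher together with Nr0b2. Of 9 PXR and CAR targets 2 were lower, Cyp2b10 (-2.10), a P450 gene induced by CAR, and Ces2a (-1.51), although Nr1i2 and Nr1i3 were higher. Of 8 LXR targets 2 were higher, Pltp (2.22) and the desaturase gene Scd1 (1.74), and Abca1 was lower (-0.41). Of 6 AHR targets only Nqo1 passed (1.25), and of 6 thyroid hormone receptor targets 4 were higher, led by Thrsp (1.36), Me1 (1.28) and Gpd2 (1.07), and 1 lower. Of 28 other nuclear receptors 5 were higher, among them Ppara (1.10), and 2 lower, with Vdr at -1.03, and of 12 co-regulators 1 was higher, Ppargc1b (0.64). Of 10 hepatocyte markers, 4 were higher and 1 lower in MM.

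**Figure D4:**
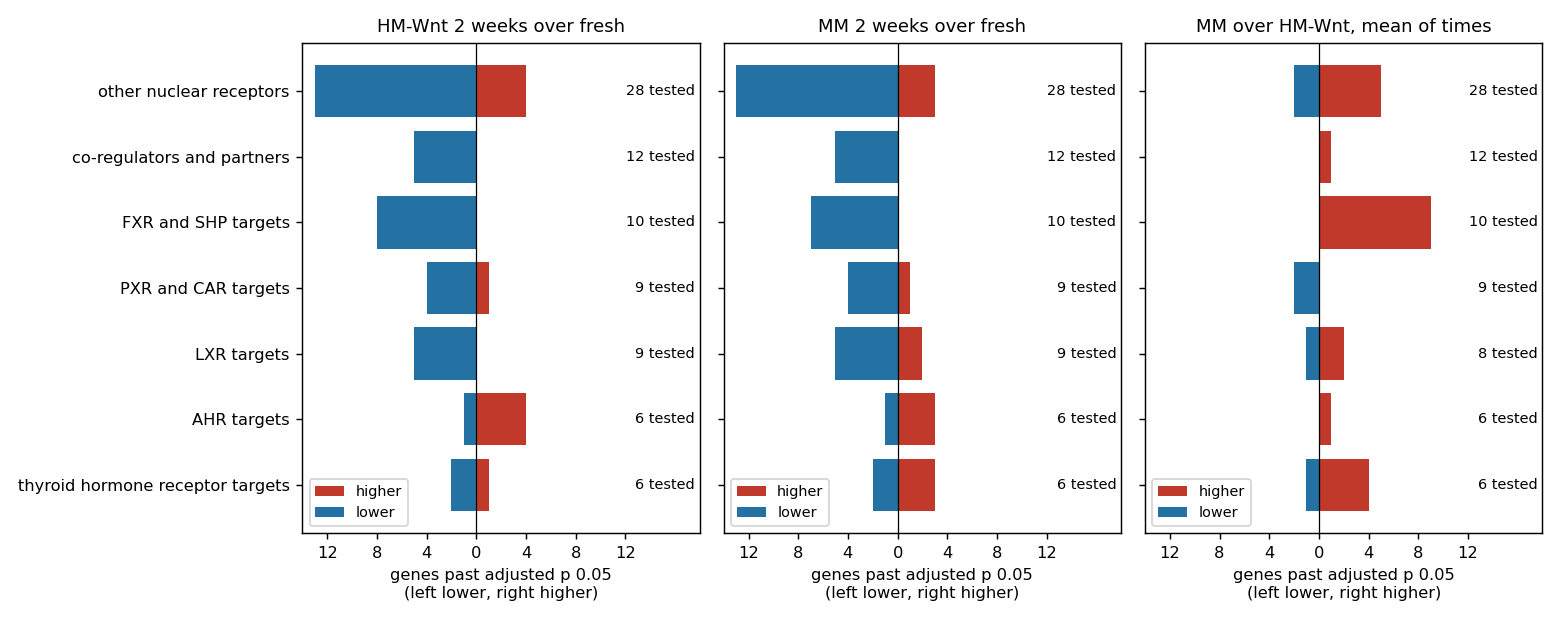
Number of genes past the test (horizontal axis, lower to the left and higher to the right) in 7 functional lists, for HM-Wnt and MM HepOrgs at 2 weeks against fresh hepatocytes and for MM against HM-Wnt, with the number tested. FXR and SHP targets were lower against fresh hepatocytes (8 and 7 of 10) and higher in MM than in HM-Wnt (9 of 10). That list mixes genes that the receptors repress with others.

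Between 1 and 2 weeks no member passed edgeR's quasi-likelihood test in either medium, nor did the difference between the media in that change. At an adjusted p under 0.05 edgeR called 0%, 0.0154% and 0% of all genes. DESeq2 called 0 members in each, and 0.129%, 2.11% and 0.283% of genes. In MM Nr0b2 gave 1.04, Nr1i3 -1.02 and Ahr -0.35 (edgeR adjusted p = 0.425, 0.313 and 0.524).

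In assembloids the comparison asks whether 2500 rather than 250 mesenchymal cells per well goes with other receptor levels. Most members had lower values in fibrotic-like than in homeostatic assembloids, but no member passed edgeR's quasi-likelihood test with all 12 libraries. In bulk RNA, fewer hepatocytes and less RNA per hepatocyte cannot be told apart. Nr1h4 read 206, 0.485 and 128 CPM in homeostatic and 26.6, 24.0 and 19.4 CPM in fibrotic-like assembloids at 1 week, a difference of -2.32 ± 1.27 (edgeR adjusted p = 0.439), and without homeostatic replicate 2 it was -2.90 ± 0.55 (adjusted p = 0.0408). At 2.5 weeks it read 170, 136 and 222 against 97.2, 23.2 and 113 CPM, a difference of -1.21 (edgeR adjusted p = 1.0, and 0.202 without that library).

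Rxra read 181, 108 and 97.9 against 51.1, 64.7 and 20.9 CPM at 1 week, a difference of -1.56 ± 0.48 (edgeR adjusted p = 0.274, and 0.0611 without that library). Nr0b2 read 8.51, 4.57 and 12.6 against 4.35, 3.94 and 3.27 CPM at 1 week, with -1.21 (edgeR adjusted p = 0.543) and -1.51 without that library (adjusted p = 0.184). Ahr did not follow the other members: it read 52.3, 0.298 and 56.2 against 74.7, 87.5 and 46.3 CPM at 1 week and 88.1, 47.0 and 48.9 against 63.0, 52.8 and 64.7 CPM at 2.5 weeks, overlapping at both times, with a 1-week difference of 0.88 (edgeR adjusted p = 0.765) and of 0.30 without that library (adjusted p = 0.529). Nr1i2 read 21.3, 3.84 and 15.7 against 5.01, 6.04 and 1.26 CPM at 1 week, with -1.79 (edgeR adjusted p = 0.343) and -2.23 without that library (adjusted p = 0.0527). Nr1i3 read 7.46, 0 and 2.50 against 1.30, 1.38 and 0.178 CPM, with -1.86 (edgeR adjusted p = 0.646) and -2.44 (adjusted p = 0.0967).

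With all 12 libraries edgeR called no member and 0% of genes at 1 week, at 2.5 weeks and in the mean of both times. On the same libraries DESeq2 called 0, 0 and 1 members (5.29%, 1.82% and 11.3% of genes), and limma with voom sample quality weights called 4, 0 and 6 (17.1%, 7.7% and 33.2% of genes). Without homeostatic 1-week replicate 2, 6 members were lower in the mean (29.7% of all genes called, 13.4% lower): Nr1h4 at -2.05 (edgeR adjusted p = 0.00967), Nr1i2 at -1.44 (0.0295), Rxra at -1.22 (0.0268), Esr1 at -1.18 (0.0297), Nr1h3 at -1.16 (0.0494) and Thrb at -1.05 (0.0453). Ahr then stood at 0.12, Nr0b2 at -0.89 and Nr1i3 at -1.42, none of which passed. Without that library Nr1h4 alone was called at 1 week (8.01% of genes, 4.87% lower) and no member at 2.5 weeks (0.258%).

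Sums of mesenchyme and cholangiocyte markers overlapped between the 2 kinds of assembloid at 1 week with all libraries and were higher in fibrotic-like ones at 2.5 weeks. Mesenchyme markers (9 genes) summed to 660 to 5360 CPM in fibrotic-like and 125 to 1980 CPM in homeostatic assembloids at 1 week, and to 1120 to 4460 against 175 to 256 CPM at 2.5 weeks. Cholangiocyte markers (6 genes) summed to 357 to 4580 against 73.3 to 5790 CPM at 1 week and to 721 to 4260 against 131 to 246 CPM at 2.5 weeks. Hepatocyte markers (10 genes) summed to 3230 to 24800 against 2830 to 101000 CPM at 1 week and to 12000 to 54800 against 64300 to 67400 CPM at 2.5 weeks, and endothelial markers stayed at or below 2.36 CPM. Their part in the receptor differences was not tested. Without the library that stood apart, the homeostatic sums at 1 week were 125 to 317 CPM for mesenchyme, 73.3 to 514 CPM for cholangiocyte and 41100 to 101000 CPM for hepatocyte markers. In the fit without it, 8 of 9 mesenchyme and 6 of 6 cholangiocyte markers were higher and 4 of 10 hepatocyte markers lower in the mean, where 29.7% of all genes were called. In that fit 7 of 12 FXR and SHP targets were lower, with Cyp8b1 at -3.70, and 3 of 7 AHR targets were higher, led by Aldh3a1 (4.26), an aldehyde dehydrogenase gene. The homeostatic library left out of it had 2830 CPM of hepatocyte and 5790 CPM of cholangiocyte markers. Fibrotic-like 1-week replicate 3, with 3230 and 4580 CPM, and 2.5-week replicate 2, with 12000 and 4260 CPM, were kept. A library with few hepatocyte markers thus left the homeostatic side only. The part of this in the 6 members called lower in the mean was not tested.

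**Figure D5:**
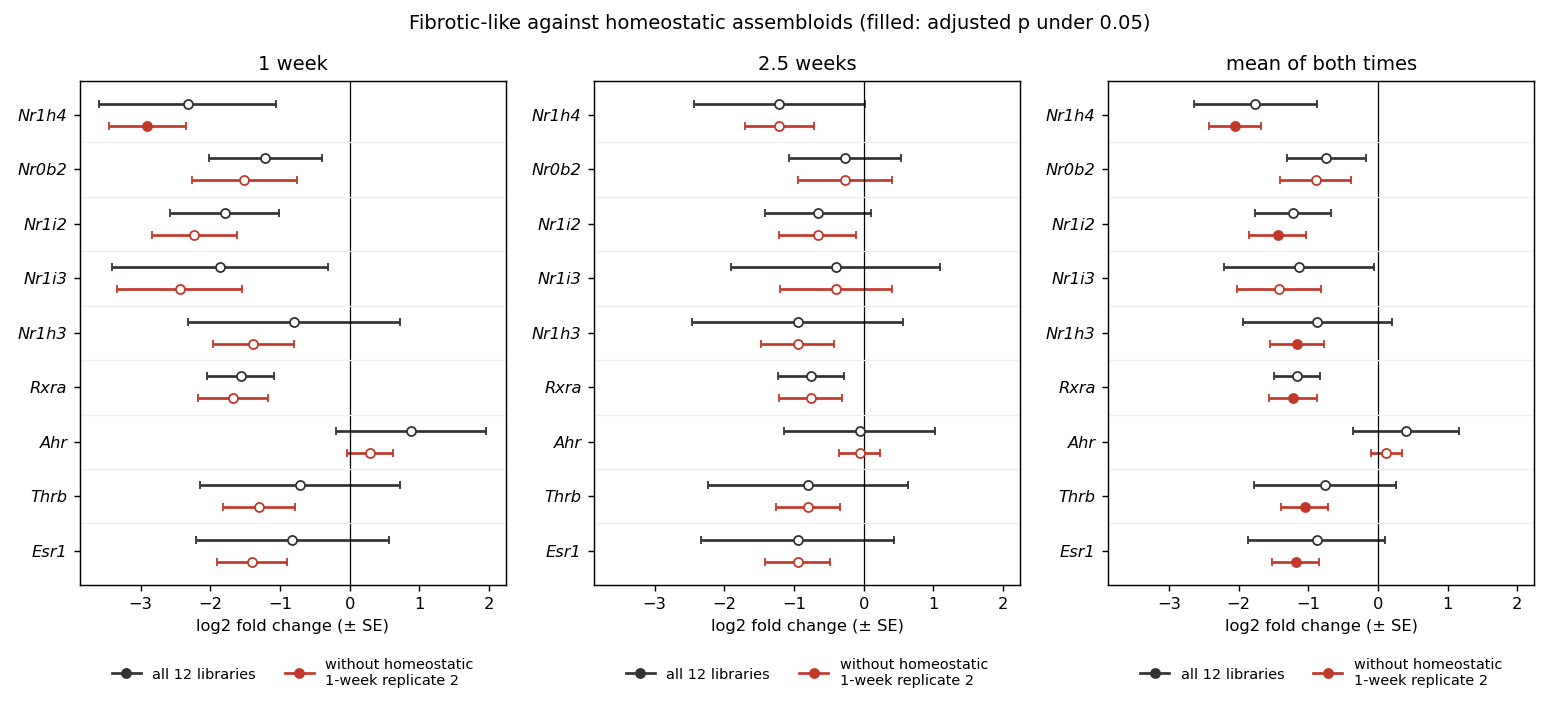
Log2 fold change of each receptor gene in fibrotic-like over homeostatic assembloids (horizontal axis, with SE) at 1 week, at 2.5 weeks and in the mean of both, with all 12 libraries and without homeostatic 1-week replicate 2; filled points passed the test. Nr1h4 moved from -2.32 to -2.90 at 1 week when that library was left out.

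Between 1 and 2.5 weeks no member was called in homeostatic or fibrotic-like assembloids, nor in the difference of that change between them. EdgeR called 0% of genes in each, and DESeq2 called 0 members with 0.085%, 0% and 0% of genes. Without homeostatic 1-week replicate 2 edgeR again called 0 members and 0% of genes. Nr1h4 read 19.4 to 26.6 CPM at 1 week and 23.2 to 113 CPM at 2.5 weeks in fibrotic-like assembloids, with overlap.

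Against MM HepOrgs of 1 week, the medium the assembloids were grown in, fibrotic-like assembloids of 1 week had lower Rxra (-1.91 ± 0.38, edgeR adjusted p = 0.00996) and Nr1i2 (-2.15 ± 0.57, adjusted p = 0.0308), in a comparison where 7.29% of all genes were called. Rxra read 20.9 to 64.7 CPM in the assembloids and 153 to 187 CPM in the HepOrgs, and Nr1i2 1.26 to 6.04 against 13.7 to 21.2 CPM, with no overlap for either. The Nr1i2 call was lost without MM replicate 1, 2 or 3 or fibrotic-like replicate 1 or 3 (edgeR adjusted p = 0.0584 to 0.106). Without homeostatic 1-week replicate 2 in the fit, which then estimates a smaller spread, 7 members were called and all were lower (36.1% of genes called, 15.9% lower): besides these, Nr1i3 at -3.42, Nr1h4 at -2.12, Esr1 at -1.92, Thrb at -1.26 and Ahr at -1.05. Homeostatic assembloids had no member called against MM HepOrgs (1.34% of genes, 0 members and 10.8% of genes by DESeq2), nor without replicate 2 (0.0862% of genes, 0.0464% lower). In that comparison Ahr read 52.3, 0.298 and 56.2 against 130, 150 and 144 CPM (-1.96, edgeR adjusted p = 0.176, and -1.36 without replicate 2, adjusted p = 0.112).

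Over the conditions, the order of mean levels put fresh hepatocytes first for all members but Ahr, for which they came last. For Nr1h4 each condition overlapped its neighbour in that order. For Nr0b2 the fresh hepatocytes, the MM HepOrgs of 1 week and the fibrotic-like assembloids of 1 week were each separate from the next lower condition. The genes whose log2 CPM over 27 libraries was most like a member's, which share depth and composition with it, included Baat, a bile acid conjugation enzyme, for Nr1h4 (r = 0.98), and Trap1 and Mrpl39 for Nr0b2 (both r = 0.91). For Nr1i2 they were Entpd5 (0.95) and Aldh1a1 (0.94), for Nr1i3 Asgr2 (0.96) and Dennd5b (0.94), for Nr1h3 Faah and Cideb (both 0.99), for Rxra Stard5 and C1rl (both 0.96), for Ahr Fbxo44 (0.96) and Atp6v1a (0.95), for Thrb Rhobtb1 and Cideb (both 0.99), and for Esr1 Nat8f1 and Pde3b (both 0.95). Without the library that stood apart these values were 0.86 to 0.96.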

How the data were processed

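Bulk RNA-seq (SMARTseq2, which does not keep strand) of mouse hepatocyte cultures was analysed in 27 libraries, 3 for each of 9 conditions, mapped by their titles. The other 10 of the 37 libraries in the table were not used. The authors mapped the reads with STAR (GRCm39) and counted them per gene by featureCounts. These deposited counts were not altered. The deposited TPM, a score that the authors derived from counts and a length column, uses a length that lies within 5% of the whole gene span for 80.8% of 21705 matched genes, so introns may be counted and TPM understates genes with long introns.

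Counts were tested in R 4.3.3 with edgeR 4.0.16 (TMM, filterByExpr with a minimum count of 10 and total of 15, quasi-likelihood test, Benjamini-Hochberg adjustment over all genes tested, threshold 0.05). HepOrgs and fresh hepatocytes (15 libraries), HepOrgs (12), assembloids (12) and all 27 libraries (assembloids against HepOrgs) were each fitted together, with 1 mean per condition. The steps were tested on simulated data. Alternatives were DESeq2 1.42.0, limma 3.58.1 on log2(TPM + 1) and log2(TPM + 0.1) with and without a filter of 1 TPM in 3 libraries, voom weights, other size factors, no count filter, other sample sets and leaving out each library. Same-numbered HepOrg libraries deviated together (correlation over 0.1 in 18 of 18 pairs, median 0.207), so the number was also used as a block there.

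Named were all 9 members, up to 3 genes per list and comparison (past the threshold, largest change, average log2 CPM of at least 1) and the 2 genes most correlated with each member (average log2 CPM of at least 3). The members and lists were chosen with earlier results of these data known. Counting depth, 30289364 to 65348596 per library, limits precision most for genes with few counts. Some genes that the naming rules select are not reported here.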

Additional observations from a re-analysis of the deposited data

Results flagged for a closer look

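Nr1h4 was flagged because its changes over time had opposite signs in the 2 media for every replicate number, so the signs are no separate support. From 1 to 2 weeks it was lower in HM-Wnt for each of the 3 replicate numbers (log2 -0.78, -0.20 and -1.11) and higher in MM for each (0.39, 0.37 and 0.94). Neither change passed edgeR's test (-0.59 in HM-Wnt, adjusted p = 0.606, and 0.54 in MM, adjusted p = 0.771). The libraries of 1 and 2 weeks overlapped in both media. The difference between the changes was 1.13 ± 0.60 on the log2 scale and did not pass edgeR's test (adjusted p = 0.673, and 0.126 with the replicate number as a block). Its cause was not tested.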

How the results depend on the processing

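Results for single members kept direction and side of the threshold in 813 of 932 alternatives over 56 results, fell short of it in 82, newly passed it in 30 and turned sign in 7, the last all on the TPM scale. Those 7 were of Rxra in HM-Wnt at 2 weeks against fresh hepatocytes (0.12, 0.13 and 0.12 on log2(TPM + 1), log2(TPM + 0.1) and unfiltered log2(TPM + 1)), Nr1h4 between assembloids at 1 week (0.29 on log2(TPM + 0.1)) and Nr1h3 in the assembloid mean (0.28, 0.80 and 0.28), where log2(TPM + 1) also moved the all-gene median to 0.87 at 1 week and 0.66 in the mean. Beyond those 7, other differences that did not pass also reached the other sign in some alternative. Against fresh hepatocytes these were in MM Nr1i2 (up to 0.10 at 1 week and 0.21 at 2 weeks), Nr1h4 at 2 weeks (0.21) and Rxra (0.05 and 0.07). Others were Nr1i3 between assembloids at 1 week (up to 0.23) and Esr1 between media at 1 week (up to 0.51). Fitting all 27 libraries together called 4, 4, 2 and 1 members against fresh hepatocytes (HM-Wnt at 1 and 2 weeks, MM at 1 and 2 weeks, with 19.7%, 22.2%, 13.7% and 12.9% of all genes), 0, 1 and 1 between media (1 week, 2 weeks, mean, with 0%, 0.0478% and 0.621%), and 1 and 2 between assembloids (1 week, mean, with 6.21% and 15.1%). For the media at 1 week, 5 were called with the block, 1 with only the groups compared and 0 with all libraries except homeostatic 1-week replicate 2. Between assembloids, voom weights called 4 at 1 week (17.1% of genes) and 6 in the mean (33.2%), DESeq2 called 1 in the mean (11.3%), and leaving out that library, 1 and 6. Against MM HepOrgs, homeostatic assembloids had 1 on log2(TPM + 1), and fibrotic-like ones 6 with only the groups compared and 7 without that library. Leaving out 1 library at a time gave 7 to 8, 7 to 9, 5 to 7 and 5 to 7 members against fresh hepatocytes, 0 to 3, 4 to 5 and 5 to 7 between media, 0 to 1, 0 and 0 to 6 between assembloids (1 week, 2.5 weeks, mean), and 1 to 2 for fibrotic-like assembloids against MM. The cause was not tested, other than that these fits hold fewer samples. The replicate number paired HepOrg libraries only: it gave a correlation over 0.1 in 19 of 30 same-numbered pairs with fresh hepatocytes included, 6 of 18 among assembloids and 32 of 108 over all, and 14 of 15, 9 of 12 and 13 of 27 libraries correlated best with their own number. The block there called 9, 9, 8 and 6 members against fresh hepatocytes, adding Rxra (-0.64, edgeR adjusted p = 0.0234) and Esr1 (-1.88, adjusted p = 0.00212) in HM-Wnt at 1 week and Nr1h4 (-0.96, adjusted p = 0.016) and Rxra (-0.57, adjusted p = 0.0421) in MM at 1 week, 0 between assembloids, and 2 in fibrotic-like assembloids against MM. Thrb and Esr1 did not reach 1 TPM in 3 libraries and gave no value on filtered TPM. Nr0b2 rested on 15 to 71 counts per library in HM-Wnt HepOrgs, and in the library that stood apart 4 members had no counts.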
